A study of Homo sapiens with 6 samples.

Results

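Cyclins, cyclin-dependent kinases (CDKs), CDK inhibitors, E2F transcription factors and the retinoblastoma pocket proteins were followed in SKBR3, a HER2-positive line of breast cancer cells, after silencing of NDRG1. The members were taken by a rule on gene names, from which CDK12 was left out. It covers symbols of cyclins (CCN and a letter), numbered CDKs, CDKN1 to CDKN3 genes, E2F1 to E2F8, RB1, RBL1 and RBL2. Of the 14812 genes named on the arrays, 61 were such members. The rule takes whole name families, so 8 of the 61 only share a name with a cyclin or inhibitor gene, among them antisense RNAs and pseudogenes. The silenced cells carried 1 shRNA against NDRG1 and gave 3 arrays (shNDRG1), and the cells they were set against carried an shRNA against GFP and gave 3 arrays (shGFP control), which the methods call a vector control. Both groups were SKBR3 cells transduced with shRNA virus, grown in serum-containing medium without the iron chelator deferoxamine and harvested in log phase. The labels number 3 batches, each with 1 array of both groups, and the methods call the cultures independent biological replicates. The dates in the titles set batch 1 on an earlier day, and the other batches share a later day. As a model the series is limited to 1 cell line and 1 hairpin, so effects of NDRG1 loss and other effects of that hairpin cannot be told apart.

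Cyclins are the regulatory subunits of CDKs, and their ordered synthesis and destruction drives a cell through G1, S, G2 and mitosis. D-type cyclins with CDK4 or CDK6, then cyclin E with CDK2, phosphorylate the pocket proteins RB1, RBL1 and RBL2 and release E2F factors, which transcribe the genes of S phase. Cyclin A and then the B-type cyclins with CDK1 carry the cell into mitosis, and INK4 and CIP/KIP inhibitors restrain these kinases. In breast cancer the cyclin D, CDK4/6 and RB1 axis is the target of clinical CDK4/6 inhibitors.

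Values are log2 values relative to a baseline that was subtracted from each probe, so they can be compared between arrays for a gene but give no expression level and no order between genes. For the same reason the epithelial identity of the cells could not be checked from marker levels. Differences are shNDRG1 minus shGFP control on the log2 scale. limma was fitted to all 14812 genes, with Benjamini-Hochberg adjustment over them and 0.05 as the threshold. This main fit left out the batch, so its standard errors hold the spread between batches. Standard errors below come from it unless the batch is named. NDRG1 itself was at -0.77, -0.74 and -1.09 in the shNDRG1 arrays, against 0.022, 0.42 and -0.022 in the shGFP control arrays (batches 1, 2 and 3). This is a 2.01-fold lower value (difference -1.01, standard error 0.16), with an adjusted p of 0.652 from limma, and not even the silenced gene passed the threshold. Batch 2 stood apart from the other batches on the first principal component (72.0% of the variance).

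The promoters of the G2/M members are shown first, because their mean difference lay farther below 0 than that of the G1 members. A further reason is that CDE/CHR, CCAAT and E2F elements are the known cell cycle elements of such promoters. RefSeq windows of GRCh38.p14, from 250 bases before to 50 bases after the gene start, were matched by symbol to 53 of the 61 members. They were searched on both strands for the CHR letters TTTGAA, for the CCAAT box bound by NF-Y, and for the E2F letters TTTCCCGC, TTTCGCGC, TTTGCCGC or TTTGGCGC. In each sequence below the 250 bases before the start are printed 5′ to 3′ along the gene's strand. Capitals mark a match to any of these letters, which reads as its reverse complement where the match lies on the other strand.
CCNB2: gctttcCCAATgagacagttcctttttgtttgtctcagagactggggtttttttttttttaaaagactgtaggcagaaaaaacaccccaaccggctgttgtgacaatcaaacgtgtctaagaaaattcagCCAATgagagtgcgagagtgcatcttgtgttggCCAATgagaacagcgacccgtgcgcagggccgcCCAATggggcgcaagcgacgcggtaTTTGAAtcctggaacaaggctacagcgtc
CDK1: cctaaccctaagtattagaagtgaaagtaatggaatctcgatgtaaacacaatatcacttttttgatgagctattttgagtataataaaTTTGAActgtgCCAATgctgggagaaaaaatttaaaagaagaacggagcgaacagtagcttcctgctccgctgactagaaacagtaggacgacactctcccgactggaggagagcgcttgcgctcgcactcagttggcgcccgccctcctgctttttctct
CDKN3: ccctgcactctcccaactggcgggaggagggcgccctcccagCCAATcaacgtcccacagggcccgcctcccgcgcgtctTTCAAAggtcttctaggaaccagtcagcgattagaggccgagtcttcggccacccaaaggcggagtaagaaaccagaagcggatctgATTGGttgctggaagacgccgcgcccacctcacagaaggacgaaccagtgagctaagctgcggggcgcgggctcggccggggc
CCNB1: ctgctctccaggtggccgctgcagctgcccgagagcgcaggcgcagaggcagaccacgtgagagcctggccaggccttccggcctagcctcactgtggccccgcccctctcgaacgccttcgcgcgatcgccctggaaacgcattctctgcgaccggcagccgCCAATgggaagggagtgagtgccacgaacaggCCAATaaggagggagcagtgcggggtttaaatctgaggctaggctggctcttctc
CDK4: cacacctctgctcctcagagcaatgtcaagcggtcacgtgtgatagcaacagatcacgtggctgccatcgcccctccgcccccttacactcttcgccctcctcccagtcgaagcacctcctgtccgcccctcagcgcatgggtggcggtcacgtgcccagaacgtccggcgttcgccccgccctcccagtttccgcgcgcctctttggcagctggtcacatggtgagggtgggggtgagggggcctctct
CCNB2 (chr15:59104896-59105145, plus strand) holds 4 CCAAT boxes and a CHR match that begins 29 bases before the start. CDK1 (chr10:60778081-60778330, plus strand) holds 1 CCAAT box and 1 CHR match here, and an E2F match that begins at base 20 after the start, outside the printed stretch. CDKN3 (chr14:54396757-54397006, plus strand) holds 2 CCAAT boxes in opposite orientation and a CHR match on the minus strand. CCNB1 (chr5:69166900-69167149, plus strand) holds 2 CCAAT boxes and no match to the CHR letters. CDK4 (chr12:57752311-57752560, minus strand), a G1 kinase set beside them, holds none of the letters searched.

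Over the 6 G2/M members (CCNA2, CCNB1, CCNB2, CCNF, CDK1 and CDKN3) the CCAAT box was present in 6 windows and the CHR letters in 4, those of CCNB2, CCNF, CDK1 and CDKN3. The window of CCNB3, a B-type cyclin that is left out of this set, held none of the letters searched. Of the 8 G1 members, 4 had a window (CCND3, CCNE1, CDK4 and CDK6), and none of these held any of the letters. Among all 53 member windows 43.4% held a CCAAT box, 17.0% the CHR letters and 17.0% the E2F letters, against 35.7%, 15.4% and 3.33% of the 27305 windows of all genes. The 9 member windows with E2F letters were those of E2F1, E2F2, E2F3, RBL1, CDK1, CDK10, CDK19, CCNO and the antisense RNA CDKN2B-AS1. No 2 matches of different letters overlapped in the windows printed. A match describes the letters of the window and does not show that a factor binds there. No variant of the CHR letters TTTGAA was searched. The lack of a match, as in CCNA2 and CCNB1, therefore does not show that a CHR is absent.

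No member passed the test after adjustment: limma gave 0 higher members and 0 lower ones, with 0% and 0% of all 14812 genes. Before adjustment 0 members had p under 0.05 and a positive difference and 4 had a negative one, against 2.69% and 1.57% of all genes. The 4 lower ones were CCNB2, E2F8, CDKN2A and CCNI. With the batch as a block these counts were 0 higher and 10 lower members, against 5.7% and 3.74% of all genes. The 6 that joined were CDK2, CDKN3, CCNG2, CCNJ, CDK13 and CDK16. With the day in the titles as the block instead, 0 members were higher and 6 lower, against 470 and 280 of all genes. The count of 4 was 2 without the shGFP control array of batch 1 or that of batch 3, or without both arrays of batch 3, and 1 without both arrays of batch 1. It was 7 without the shGFP control array of batch 2 or without both arrays of that batch. The lower genes among all genes numbered 232 in the full fit. They numbered 465 and 471 in these last 2 settings. Without the shGFP control array of batch 1 or of batch 3 they numbered 196 and 252. Without both arrays of batch 3 or of batch 1 they numbered 145 and 120.

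By direction, 40 of the 61 members lay below the control on average (65.6%), against 46.4% of all genes. Below the control within all 3 batches were 19 members (31.1%), against 12.5% of all genes, and above it within all 3 were 4 members (6.56%), against 17.1%. The 3 shNDRG1 arrays lay below all 3 control arrays for 6 members (9.84%), against 3.21% of all genes. These were CCNB1, CCNB2, CCNI, CDK2, CDKN2A and E2F8. CDK8 alone lay above all control arrays (1.64%), against 5.14% of all genes. With 3 arrays against 3, a 2-sided exact permutation test of a single gene that ignores the batches cannot go below p = 0.1. The median difference of the members was -0.035, against 0.0070 over all genes. It was -0.15 without the shGFP control array of batch 2 and 0.019 without that of batch 1.

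**Figure D1:**
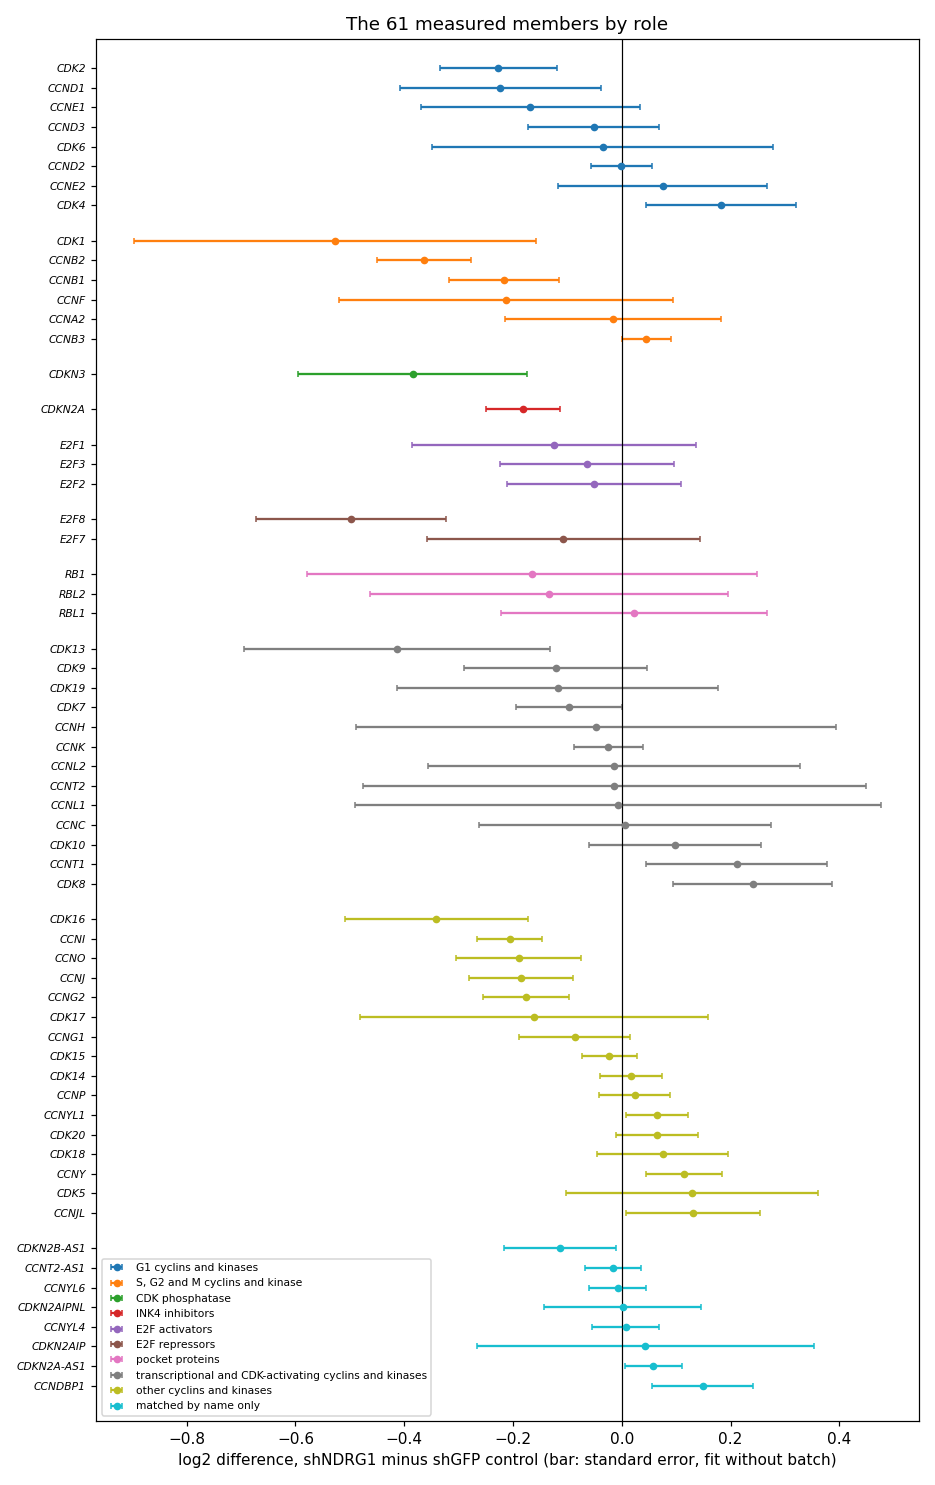
Log2 difference, shNDRG1 minus shGFP control, of each of the 61 members (points, x axis), grouped and coloured by role down the page, with the standard error of the limma fit without batch as bars. CDK1, E2F8, CDK13, CDKN3 and CCNB2 lie farthest below 0, from -0.53 to -0.36, and CDK8 and CCNT1 farthest above it, at 0.24 and 0.21. Leaving out the shGFP control array of batch 2 brought these values to 0.075 and 0.033.

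The cyclins and kinase of S, G2 and M phase lay lowest among the roles with more than 2 measured members. CCNB2, a B-type cyclin that partners CDK1, was -0.051, 0.051 and -0.14 in the shNDRG1 arrays of batches 1, 2 and 3, against 0.45, 0.29 and 0.21 in shGFP control cells. All 3 shNDRG1 values were thus lower than any control value. Its difference was -0.36 (standard error 0.09, unadjusted p = 0.0065 and adjusted p = 0.833 from limma), or 1.29-fold lower, the smallest p among the members. With the batch as a block its adjusted p was 0.336 from limma. CCNB1, the major mitotic cyclin, was -0.025, 0.025 and -0.32 in shNDRG1 cells, against 0.11, 0.12 and 0.090 in shGFP control cells. The groups did not overlap, the control arrays lay within a narrow range, and the shNDRG1 array of batch 3 was the lowest. The difference of CCNB1 was -0.22 (standard error 0.10), and -0.11 without that array.

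CDK1, the kinase of mitotic entry, had the largest difference of any member and also one of the least even. It was 0.47, -0.20 and -0.71 in the shNDRG1 arrays of batches 1, 2 and 3, against 0.62, -0.15 and 0.68 in shGFP control cells. The groups overlapped, and the within-batch differences were -0.15, -0.052 and -1.38, so that batch 3 carried most of the mean of -0.53 (standard error 0.37). Without the shNDRG1 array of batch 3, or without both arrays of that batch, the difference of CDK1 was -0.25 or -0.10. CDKN3, a phosphatase that removes the activating phosphate from CDKs, had the same pattern, with -0.19, -0.19 and -0.77 within the batches. Its values were 0.32, -0.095 and -0.40 in shNDRG1 cells, against 0.51, 0.095 and 0.37 in shGFP control cells. The difference of CDKN3 was -0.38 (standard error 0.21, unadjusted p = 0.121, or 0.0477 with the batch as a block, from limma), and -0.21 without the shNDRG1 array of batch 3.

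CCNF, an F-box cyclin of G2 that serves a ubiquitin ligase, was -0.30, 0.48 and 0.034 in shNDRG1 cells, against -0.034, 0.84 and 0.049 in shGFP control cells. Both groups were highest in batch 2, and the difference of -0.21 had a standard error of 0.31 without the batch and 0.08 with it. CCNA2, the cyclin of S phase and G2, was 0.24, 0.012 and -0.012 in shNDRG1 cells, against 0.26, -0.33 and 0.36 in shGFP control cells. It lay above the control in batch 2 and below it in batch 3, with a mean difference of -0.016 (standard error 0.20) that was above 0 without the shNDRG1 array of batch 2 or 3, and without the control array of batch 1 or 3. CCNB3, a cyclin known mainly from the germ line, ranged from -0.015 to 0.079 over the 6 arrays and lay above the control within each batch, with a difference of 0.045 (standard error 0.045).

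**Figure D2:**
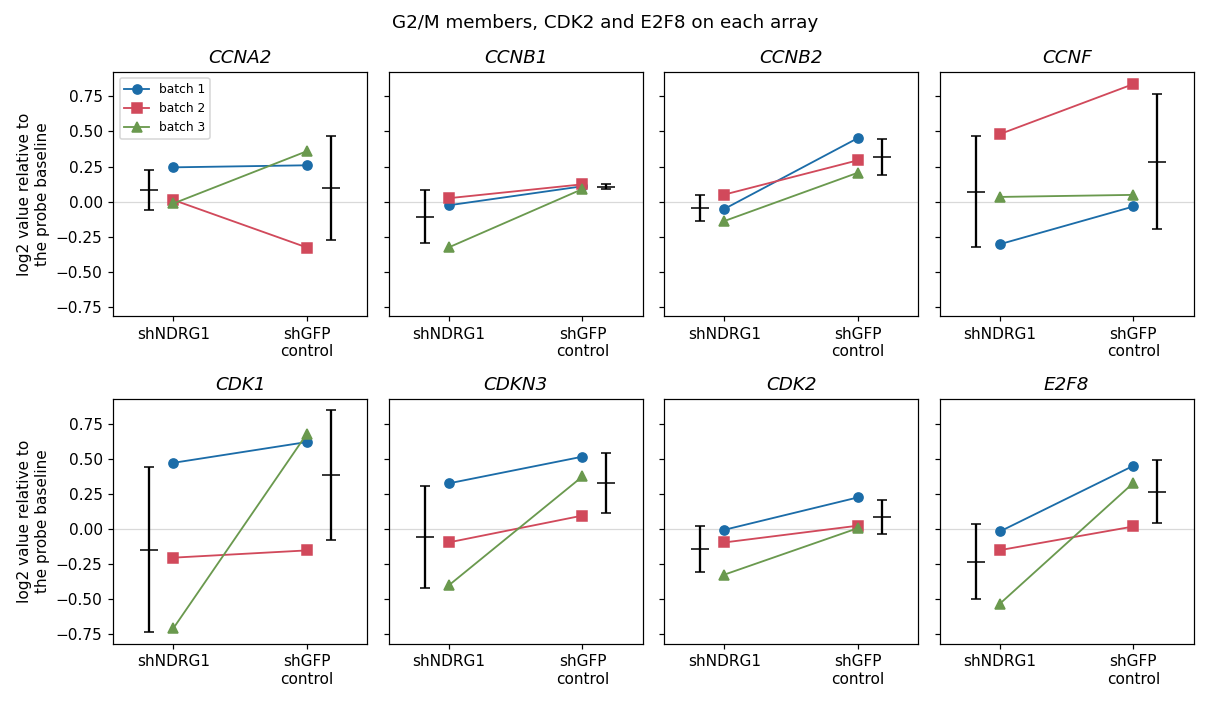
Log2 value relative to the probe baseline (y axis) of the 6 G2/M members and of CDK2 and E2F8 on each array, with lines joining the 2 arrays of a batch and black marks giving the mean and SD of each group (n = 3). Within every batch the shNDRG1 array lies below its control for all genes shown but CCNA2, which lies above it in batch 2, and the batch 3 lines of CDK1, CDKN3 and E2F8 are steep. CDK4 and CCNB3, which lie above the control within every batch, are not shown. Of all 61 members 19 lie below the control within every batch, against 12.5% of all genes.

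The G1 cyclins and kinases did not share 1 direction. CDK2, the kinase of cyclins E and A, was -0.0060, -0.096 and -0.32 in shNDRG1 cells, against 0.22, 0.023 and 0.0060 in shGFP control cells. The groups did not overlap, and the difference of CDK2 was -0.23 (standard error 0.11, unadjusted p = 0.0830, or 0.0194 with the batch as a block, from limma), and -0.14 without the shNDRG1 array of batch 3. CCND1, the cyclin D most often amplified in breast cancer, was -0.49, 0.026 and 0.15 in shNDRG1 cells, against -0.026, 0.13 and 0.26 in shGFP control cells. It lay below the control within each batch but the groups overlapped, with a difference of -0.22 (standard error 0.18) that was -0.016 with array weights, -0.10 with batch 1 left out and -0.031 with its shNDRG1 array alone left out. CDK4, the main partner of cyclin D, lay above the control within each batch, at 0.052, 0.22 and -0.0069 in shNDRG1 cells, against -0.089, 0.15 and -0.34 in shGFP control cells. Its difference was 0.18 (standard error 0.14, unadjusted p = 0.240, or 0.0564 with the batch as a block, from limma), and was 0.059 without the shGFP control array of batch 3.

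The other 5 G1 members changed sign between batches. CCNE1, which activates CDK2 at the start of S phase, had differences of 0.0084, -0.23 and -0.28 within batches 1, 2 and 3. CCNE2, the second cyclin E, had 0.20, 0.31 and -0.29, and CDK6, the second kinase of cyclin D, 0.043, 0.13 and -0.28. These 3 genes lay below the control most clearly in batch 3. CCND3 had differences of -0.045, -0.16 and 0.055, and CCND2 of 0.061, -0.13 and 0.064. CCND2 was the only member with 2 probes, which disagreed in direction at -0.11 and 0.11, so its mean difference of -0.0010 is no measure of either probe.

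Set side by side, the 6 G2/M members averaged a difference of -0.29 and the 8 G1 members one of -0.056. The G2/M set leaves out CCNB3, the gene of its role that lay above the control. All 6 G2/M members lay below the control on average and 5 of them within every batch. Of the 8 G1 members 6 lay below on average and 2 within every batch. Among all genes 46.4% lay below on average and 12.5% within every batch. Within batches 1, 2 and 3 the G2/M mean was -0.21, -0.10 and -0.55, and the G1 mean was -0.035, -0.028 and -0.11. The gap between the phases, G2/M minus G1, was -0.17, -0.072 and -0.44 within the batches, or -0.23 ± 0.19 (SD, n = 3). It had the same sign in each batch, and it was -0.18 with CDK1 left out. With CCNB3 added, 6 of 7 genes lay below the control, with a mean of -0.24 and a gap of -0.18. Both of these choices were made after the values were seen. Without the shNDRG1 array of batch 3 the gap was -0.14 and the G2/M mean -0.18. Without both arrays of batch 3 they were -0.12 and -0.16. In RNA from whole cultures, fewer cells in G2 and M and less of these transcripts per cell cannot be told apart.

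**Figure D3:**
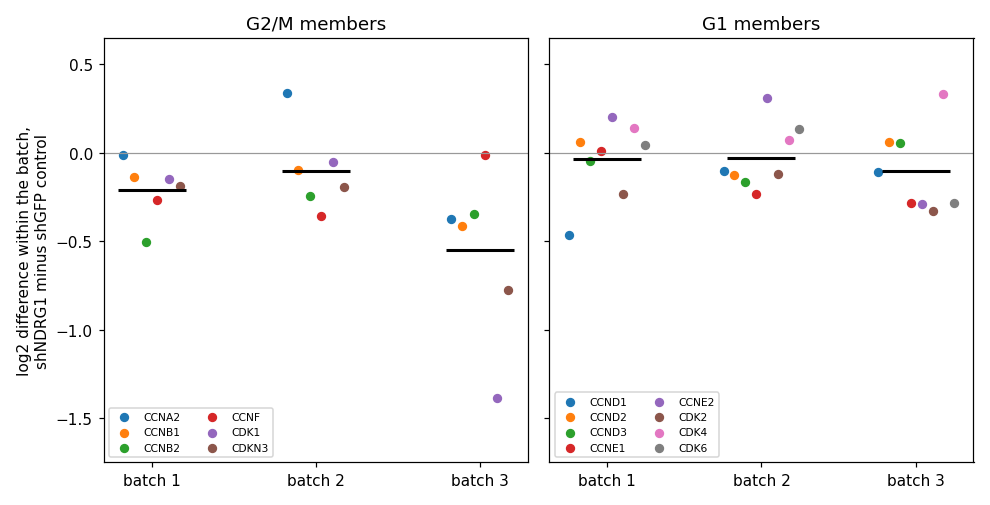
Log2 difference within each batch, shNDRG1 minus shGFP control (y axis), of each G2/M member (left) and G1 member (right), with black bars for the mean of the members. The G2/M means of -0.21, -0.10 and -0.55 lie below the G1 means of -0.035, -0.028 and -0.11, with the widest gap in batch 3, where CDK1 is at -1.38.

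Among the E2F factors, the lowest was E2F8, an atypical E2F that acts as a repressor and is itself made in S phase. E2F8 was -0.018, -0.15 and -0.53 in the shNDRG1 arrays of batches 1, 2 and 3, against 0.45, 0.018 and 0.33 in shGFP control cells. The groups did not overlap, although only a narrow margin parted the shNDRG1 array of batch 1 from the control array of batch 2. Its difference was -0.50 (standard error 0.17, unadjusted p = 0.0315, or 0.0227 with the batch as a block, from limma), or 1.41-fold lower, with an adjusted p of 0.9999. It was -0.32 with batch 3 left out. E2F7, the other atypical repressor, had differences of -0.097, 0.13 and -0.36 within the batches. It lay above the control in batch 2, and its mean of -0.11 was no larger in size than its standard error (0.25 without the batch and 0.11 with it).

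The activators E2F1, E2F2 and E2F3, which bind RB1 and drive S phase genes, all lay slightly below the control on average. E2F1 had differences of -0.11, -0.23 and -0.032 within batches 1, 2 and 3, a mean of -0.12 (standard error 0.26 without the batch and 0.06 with it). E2F1 was -0.17, 0.48 and 0.060 in shNDRG1 cells, against -0.064, 0.71 and 0.092 in shGFP control cells, so batch 2 was the highest in both groups. E2F2 had a mean difference of -0.051 and E2F3 one of -0.065, and both changed sign between batches. The 3 activator promoters all held E2F letters.

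The pocket proteins followed the batches rather than the groups. RB1 was 0.18, -1.002 and -0.29 in the shNDRG1 arrays of batches 1, 2 and 3, against 0.17, -0.89 and 0.099 in shGFP control cells. RBL2, the pocket protein of quiescent cells, was 0.045, -0.72 and -0.16 in shNDRG1 cells, against 0.21, -0.76 and 0.12 in shGFP control cells. In both genes the 2 arrays of batch 2 were the lowest and the shNDRG1 array of batch 3 came next. The group difference of RB1 was -0.17 (standard error 0.41 without the batch and 0.09 with it). That of RBL2 was -0.13 (standard error 0.33 without the batch and 0.08 with it). RBL1, the pocket protein of cycling cells, had a difference of 0.022 (standard error 0.24), with 0.17, 0.30 and -0.41 within the batches.

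Of the CDK inhibitors 1 was measured, CDKN2A, which encodes p16INK4A, an inhibitor of CDK4 and CDK6, and the p53 activator ARF. CDKN2A was -0.035, -0.0017 and 0.0017 in shNDRG1 cells, against 0.14, 0.077 and 0.29 in shGFP control cells. The groups did not overlap and the shNDRG1 arrays lay close together. Its difference was -0.18 (standard error 0.07, unadjusted p = 0.0400, or 0.0406 with the batch as a block, from limma), or 1.13-fold lower, with an adjusted p of 0.9999. The antisense gene CDKN2A-AS1 had a difference of 0.058 (standard error 0.05) and CDKN2B-AS1, the antisense RNA at the INK4 locus, one of -0.11 (standard error 0.10). CDKN1A, CDKN1B, CDKN1C, CDKN2B, CDKN2C and CDKN2D, which encode p21, p27, p57 and the remaining INK4 inhibitors, had no named probe and were not analysed here. The same holds for CCNA1, E2F4, E2F5 and E2F6.

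Cyclins and kinases of transcription, with the CDK-activating kinase, made up 13 members. Of these 9 lay below the control on average and 4 above, against 46.4% of all genes below it, with a median difference of -0.014. CDK13, an RNA polymerase II kinase that partners cyclin K, was -0.10, -0.76 and -0.49 in shNDRG1 cells, against 0.31, -0.56 and 0.14 in shGFP control cells. It lay below the control within each batch, with a difference of -0.41 (standard error 0.28, unadjusted p = 0.196, or 0.0110 with the batch as a block, from limma). CDK13 was outside the rule for named genes and was chosen after its values were seen. Its partner CCNK had a difference of -0.025 (standard error 0.06). CDK8, the Mediator kinase, was 0.0071, -0.0071 and 0.028 in shNDRG1 cells, against -0.061, -0.56 and -0.070 in shGFP control cells. All 3 shNDRG1 arrays lay above all controls, but the control array of batch 2 made most of the difference of 0.24 (standard error 0.15), which was 0.075 without that array.

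CCNT1, the cyclin of the elongation kinase CDK9, had differences of 0.13, 0.45 and 0.054 within batches 1, 2 and 3, a mean of 0.21 (standard error 0.17) that was 0.033 without the shGFP control array of batch 2. CDK9 itself had a mean of -0.12 (standard error 0.17). The subunits of the CDK-activating kinase, CDK7 and CCNH, had differences of -0.098 (standard error 0.10) and -0.048 (standard error 0.44), and CCNC, the cyclin of CDK8, one of 0.0058 (standard error 0.27).

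The range of the 3 batch means was larger than the group difference for 53 of the 61 members (86.9%), close to the 85% of all genes. Both arrays of batch 2 lay below the other 4 for 18 members (29.5%), against 18% of all genes, and above them for 8 members (13.1%), against 21.7%. The 18 included 9 of the 13 members of transcription (CCNC, CCNH, CCNL1, CCNL2, CCNT1, CCNT2, CDK7, CDK13 and CDK19), all 3 pocket proteins, CCNE2, CDK6 and CDK17. None of the 6 G2/M members was among them. CCNL1, a cyclin of splicing-linked CDKs, spanned the most, at 0.23, -1.08 and -0.43 in the shNDRG1 arrays of batches 1, 2 and 3, against -0.13, -1.25 and 0.13 in shGFP control cells. The median over the 18 genes was 0.11, -0.64 and -0.18 in the shNDRG1 arrays of batches 1, 2 and 3, against 0.14, -0.75 and 0.12 in shGFP control cells.

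By median over the 18 genes, the shNDRG1 array of batch 3 lay below the other 3 arrays outside batch 2. That it lay above batch 2 was fixed by how these genes were picked. On the first principal component it lay between batch 2 and the rest. It was at 1.11, against 22.0 and 31.1 for the batch 2 arrays and -20.1 to -17.0 for the other 3. Over all 61 members the mean difference within batches 1, 2 and 3 was -0.057, 0.026 and -0.18, against 0.00033, 0.029 and -0.0055 over all genes. Batch 3 was the batch in which the mean of the G2/M, G1, E2F, pocket protein and transcription groups lay lowest. The part of the position of that array in these differences was not tested. For CCNB2 and CCNI the difference within batch 3 lay between those of the other batches, at -0.34 for CCNB2 and -0.16 for CCNI, whereas for CDKN2A it was the lowest of the 3, at -0.29.

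**Figure D4:**
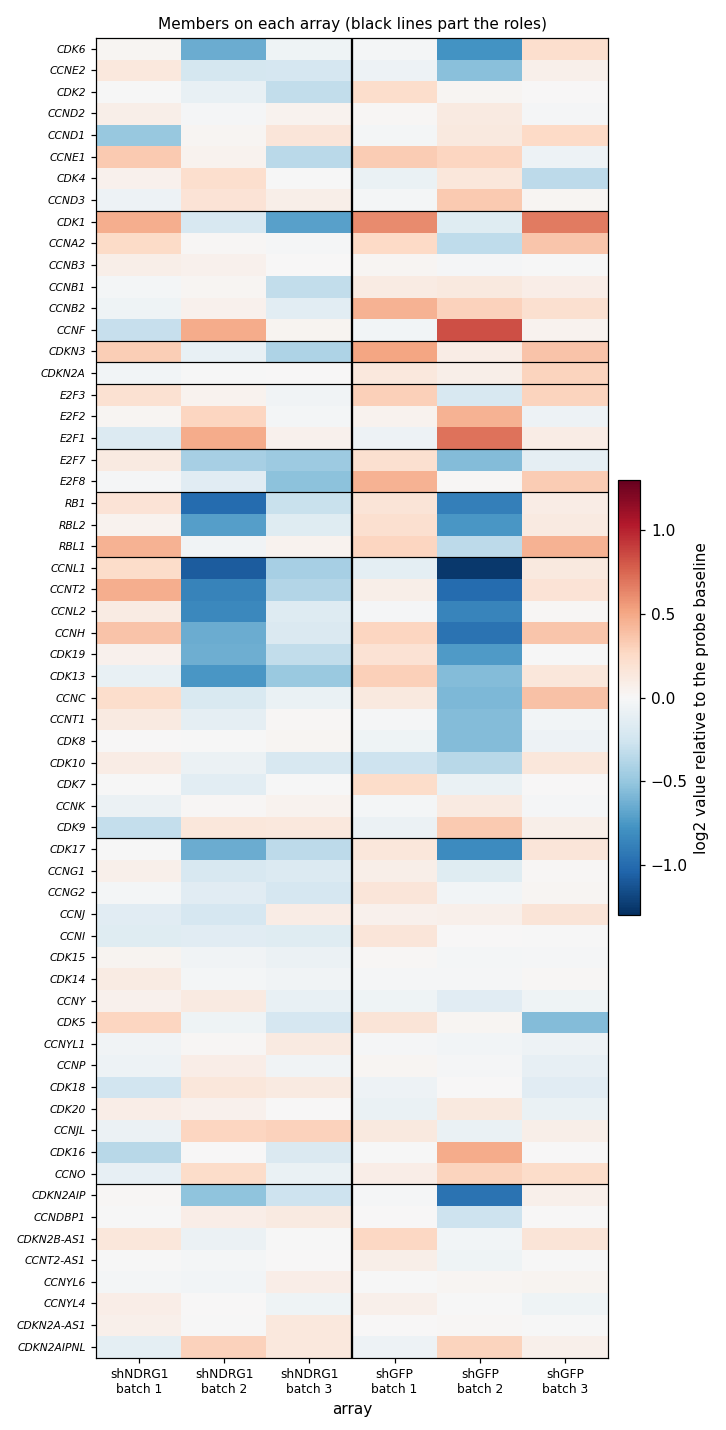
Log2 value relative to the probe baseline (colour) of the 61 members (rows, grouped by role with black lines) on the 6 arrays (columns, shNDRG1 left of shGFP control). The pocket proteins and most members of transcription are lowest on both batch 2 arrays, with RB1 at -1.002 and -0.89 and CCNL1 at -1.08 and -1.25, and the shNDRG1 array of batch 3 is intermediate.

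The remaining 16 cyclins and kinases were split evenly, with 8 below and 8 above the control, against 46.4% of all genes below it. Within all 3 batches 6 lay below and 0 above it, against 12.5% and 17.1% of all genes. CCNI, an atypical cyclin of little known function, was -0.15, -0.15 and -0.16 in shNDRG1 cells, against 0.16, 0.0045 and -0.0045 in shGFP control cells. The shNDRG1 arrays were almost alike and lay below all controls, and the difference of CCNI was -0.21 (standard error 0.06, unadjusted p = 0.0151 and adjusted p = 0.9999 from limma). CCNG2, a cyclin linked to cell cycle arrest, had differences of -0.18, -0.11 and -0.24 within batches 1, 2 and 3, a mean of -0.18 (standard error 0.08, unadjusted p = 0.0696, or 0.0258 with the batch as a block, from limma). CDK16, a kinase activated by cyclin Y, had -0.36, -0.48 and -0.19 within the batches, a mean of -0.34 (standard error 0.17 without the batch and 0.07 with it) that was -0.18 without the shGFP control array of batch 2. These genes lay below the control in each batch, as did CCNG1, CCNJ and CCNO.

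CCNJ had a mean difference of -0.19 (standard error 0.09) and CCNO, which acts in the formation of multiciliated cells, one of -0.19 (standard error 0.11). On the other side, CCNY, the membrane-bound cyclin Y, had a mean of 0.11 (standard error 0.07) and its relative CCNYL1 one of 0.064 (standard error 0.06). CDK14, CDK15 and CDK20 had differences between -0.023 and 0.065. Of the 8 genes matched by name alone, CCNDBP1, which encodes a cyclin D-binding protein, had the largest difference at 0.15 (standard error 0.09), and CDKN2AIP, which encodes a binding partner of ARF, had 0.043 (standard error 0.31).

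Other genes of the pathway were read from 4 lists, which were chosen with earlier results of these data known. Of 7 listed DREAM complex and FOXM1 factors, which control the transcription of G2/M genes, 7 were measured and 7 lay below the control on average, against 46.4% of all genes, with a median difference of -0.21. Other DREAM genes were counted elsewhere, so this count depends on how the list was cut. Of them RBL2 lay below the control at -0.13, and RBL1, TFDP1 and TFDP2 lay above it, at 0.022, 0.019 and 0.076. Within all 3 batches 3 of the 7 lay below it, RBBP4, FOXM1 and MYBL2, against 12.5% of all genes, while LIN9, LIN37, LIN52 and LIN54 changed sign between batches. RBBP4, a histone-binding subunit of DREAM, was -0.073, -0.087 and -0.28 in shNDRG1 cells, against 0.17, 0.35 and 0.13 in shGFP control cells. The groups did not overlap, and its difference was -0.36 (standard error 0.09, unadjusted p = 0.0072 and adjusted p = 0.841 from limma). FOXM1, the activator of mitotic genes, was -0.19, 0.26 and -0.22 in shNDRG1 cells, against 0.19, 0.79 and 0.22 in shGFP control cells. Within each batch it lay below the control by a similar amount, with -0.38, -0.54 and -0.44, a mean of -0.45 (standard error 0.21, unadjusted p = 0.0835, or 0.000894 with the batch as a block, from limma), and was -0.26 without the shGFP control array of batch 2. MYBL2, which recruits FOXM1 to these promoters and is also an E2F target, had -0.50, -0.50 and -0.12 within the batches, a mean of -0.37 (standard error 0.21). In this list 1 gene was lower and 0 higher at an unadjusted p under 0.05, or 3 and 0 with the batch as a block, against 1.57% lower and 2.69% higher among all genes, or 3.74% and 5.7% with the block.

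Of 17 listed E2F target genes of S phase 13 were measured. Of these 9 lay below and 4 above the control, against 46.4% of all genes below it, with a median difference of -0.065. At an unadjusted p under 0.05, 0 were lower and 0 higher, or 3 lower and 0 higher in the blocked fit, namely TYMS, MYBL2 and MCM7. MYBL2 was also among the 3 of the DREAM and FOXM1 list. Among all genes 1.57% were lower and 2.69% higher, or 3.74% and 5.7% in the blocked fit. TYMS, the thymidylate synthase gene, had differences of -0.31, -0.21 and -0.34 within batches 1, 2 and 3. Its mean was -0.29 (standard error 0.16 without the batch and 0.05 with it). With the batch as a block its unadjusted p was 0.0046 and its adjusted p 0.327 from limma. The helicase subunit gene MCM3 had a mean of -0.13 (standard error 0.07), whereas PCNA, the replication clamp, was at -0.0042 (standard error 0.07) and MCM6 at 0.00037 (standard error 0.07).

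Of 14 listed regulators of CDKs 10 were measured, with 6 below and 4 above the control, against 46.4% of all genes below it. Their median difference was -0.060, and 0 had an unadjusted p under 0.05 in either fit. Among all genes 1.57% were lower and 2.69% higher at that level, or 3.74% and 5.7% with the batch as a block. CKS2, a small CDK-binding subunit, had a mean difference of -0.14 (standard error 0.23), CDC20, the mitotic activator of the anaphase-promoting complex, of -0.12 (standard error 0.14), and CDC25C, the phosphatase that activates CDK1, of -0.099 (standard error 0.13). Of 12 listed p53 target genes 7 were measured, with 1 below and 6 above the control. Within all 3 batches 0 lay below it and 0 above, against 12.5% and 17.1% of all genes. The mean of the 7 genes changed sign between batches, at -0.028, 0.20 and 0.051 within batches 1, 2 and 3. Their median difference was 0.051, and 0 had an unadjusted p under 0.05 in either fit. The shares of all genes are those given for the CDK regulators. TP53INP1, a stress-induced p53 cofactor, had differences of -0.053, 0.40 and 0.28 within batches 1, 2 and 3, a mean of 0.21 (standard error 0.10). GDF15, a stress cytokine, had a mean of 0.18 (standard error 0.25) and BBC3, which encodes PUMA, of -0.11 (standard error 0.09). Whether p53 acts on these genes in SKBR3 cells was not tested.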

How the data were processed

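RNA of 6 SKBR3 cultures was hybridized to Affymetrix Gene ST arrays. The authors checked the arrays in Affymetrix Expression Console, summarized and quantile normalized them with PLIER in GeneSpring and shifted each probe to a baseline. No source used here gives the base of the logarithm, and the deposited values were taken as log2. The stated baseline is the median of the controls, but among the 44629 probes the median of the controls was 0 (within 1e-05) in 0.338%, whereas the 6-array median was 0 in 26.8%. No filter on dim probes was possible, since no level remains. The number of arrays limits the precision. The table held 0 unused columns of per-sample values, and no array was a copy of another (at most 54 identical values).

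The platform annotation named 15835 probes with 1 symbol, and 28794 are unnamed here. Probes of a gene were averaged. The groups were compared over 14812 genes with limma 3.58.1 in R 4.3.3 (lmFit and eBayes, no covariate, Benjamini-Hochberg). The scripts were tested on simulated data. Python 3.11.15 with pandas 2.3.3 searched the promoters, and matplotlib 3.10.9 made the plots.

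Each batch named in the labels holds 1 array of both groups, so the batch pairs the arrays. Over genes, the deviations of the paired arrays correlated at 0.785, 0.833 and 0.163 in batches 1, 2 and 3. The control array of batch 3 correlated more closely with the shNDRG1 array of batch 1, at 0.640, than with its own partner, so the pairing rests on the labels. A fit with the batch as a replicate block was run beside the main fit. The other alternatives were a block for the day in the titles, a second normalization, another centring, another variance model, array weights, other handling of probes, another threshold and leaving out arrays.

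The members and lists were chosen with earlier results of these data known, so no p over a list is given. Genes named are NDRG1, all members of the G1, S/G2/M, inhibitor, phosphatase, E2F and pocket protein roles, the 5 other members with the smallest p in each direction and, from each pathway list, the 3 of smallest p. Any other gene named was picked with its values in view.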

Additional observations from a re-analysis of the deposited data

How the results depend on the processing

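Under every alternative run, the limma fit called 0 members higher and 0 lower, also with a threshold of 0.1 on the adjusted p. Over all genes 0 passed in each direction, except with array weights, which called 4 higher and 1 lower, none of them a member. At an unadjusted p under 0.05 the members numbered 0 higher and 4 lower. With the replicate block the lower members were 10, with the block for the day they were 6, and with array weights 2 were higher and 18 lower. Leaving out single arrays or batches gave 0 to 2 higher and 1 to 7 lower, against 146 to 566 and 120 to 471 of all genes. Over all genes the counts of 399 higher and 232 lower became 845 and 554 with the replicate block, 1753 and 1186 with array weights, and 967 and 706 among all probes. In the other pathway lists the replicate block moved the lower genes from 1 to 3 of the DREAM and FOXM1 factors and from 0 to 3 of the E2F targets. MYBL2 was counted in both lists, and the replicate block made no call after adjustment. Array weights also moved CDK1 to -1.17, the G2/M mean to -0.50 and the gap of G2/M minus G1 to -0.40.

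The median difference of the members, -0.035, was -0.14 with array weights and ranged from -0.15 to 0.019 without single arrays or batches, above 0 only without the shGFP control array of batch 1. The G1 mean of -0.056 was -0.10 with array weights and ranged from -0.083 to -0.032. The G2/M mean ranged from -0.38 to -0.16 and the gap of G2/M minus G1 from -0.31 to -0.12. The cause of these shifts was not tested.

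Of 46 named genes, 29 kept their sign under all 16 alternatives and 17 did not. After quantile normalization again, CCND2 was 0.015, CCNE2 -0.024 and RBL1 -0.035. With array weights CCND2 was 0.039, CCND3 0.051, CCNE2 -0.15, E2F1 0.019 and RBL1 -0.25. Without single arrays or batches CCNA2 ranged from -0.23 to 0.16, CCND2 from -0.033 to 0.062, CCND3 from -0.12 to 0.062, CCNE1 from -0.33 to 0.011, CCNE2 from -0.11 to 0.26, CCNF from -0.42 to 0.064 and CDK6 from -0.33 to 0.17. E2F1 ranged from -0.30 to 0.11, E2F2 from -0.15 to 0.10, E2F3 from -0.23 to 0.069, E2F7 from -0.31 to 0.075, RB1 from -0.51 to 0.15, RBL1 from -0.21 to 0.24 and RBL2 from -0.44 to 0.087. CDC20 ranged from -0.20 to 0.019, CDC25C from -0.18 to 0.0053 and CKS2 from -0.33 to 0.023. Of genes that kept their sign, CCND1 ranged from -0.35 to -0.031, E2F8 from -0.66 to -0.32, CDKN2A from -0.23 to -0.12, CCNO from -0.30 to -0.12, CCNDBP1 from 0.046 to 0.23, CCNYL1 from 0.0066 to 0.11, MYBL2 from -0.55 to -0.19, TYMS from -0.44 to -0.18, TP53INP1 from 0.11 to 0.34, GDF15 from 0.012 to 0.47 and BBC3 from -0.19 to -0.0021.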
